A study of Homo sapiens with 18 samples.

Results

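Lysosomal hydrolases, the proton pump that acidifies the lysosome and the transcription factors known for their control were followed in BJ cells, an established line of human skin fibroblasts. The set was taken by symbol from a fixed list, drawn up with earlier results of these data known. Of the 61544 genes listed in the count tables it held 35, and all 35 symbols were found. It held 14 glycosidases, sulfatases and lipases, 8 peptidases, 2 activator proteins, 3 membrane proteins, 5 proton pump subunits and 3 transcription factors. Poly(A) RNA was sequenced from cells in which PURPL, a long noncoding RNA, had been lowered by CRISPR interference (a guide RNA directs a repressor to the gene) or raised by overexpression, in a series whose title concerns cell senescence. The knockdown groups were sgRNA-PURPL#1 and sgRNA-PURPL#2, each named for its guide RNA, against a control guide (sgCtrl). The overexpression groups were PURPL#1-OE and PURPL#2-OE, against their own control (Ctrl). Each of the 6 groups held 3 libraries, 18 in all. The labels do not say how PURPL was overexpressed, whether #1 and #2 are constructs, lines or clones, or whether the 3 libraries of a group came from separate cultures. The p-values therefore measure only the spread between these libraries, which may be technical.

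The lysosome is the acidic compartment in which cells break down glycans, lipids and proteins taken up from outside or delivered by autophagy. Its hydrolases work at low pH, which is kept by the vacuolar H+-ATPase, a pump with a soluble V1 part that splits ATP and a membrane V0 part that moves protons. TFEB, TFE3 and MITF bind E-box elements upstream of many lysosomal genes and are controlled at the lysosome surface by mTORC1. Beta-galactosidase, the product of GLB1, gives the enzyme activity that is stained at raised pH as a sign of senescent cells.

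Each knockdown library held 11444513 to 12896040 counts, and each overexpression library 18858976 to 27985649. PURPL itself, the targeted RNA, measured 14.1 to 17.9 CPM (counts scaled to the library size, with TMM factors) with sgRNA-PURPL#1 and 17.9 to 21.5 CPM with sgRNA-PURPL#2, against 71.1 to 94.3 CPM in sgCtrl. It measured 166 to 178 CPM in PURPL#1-OE and 114 to 129 CPM in PURPL#2-OE, against 59.2 to 67.3 CPM in Ctrl, so every library lay on the side of its control that its label names. The 8 fibroblast markers were present in every group. Of the 6 macrophage and leukocyte markers, TYROBP alone had 0 counts in all libraries. The 6 summed to 1.64 to 2.60 CPM in sgCtrl and 2.07 to 2.89 CPM in Ctrl. Keratinocyte markers summed to 12.3 to 13.7 CPM in sgCtrl and 7.95 to 8.52 CPM in Ctrl. Endothelial markers summed to 4.28 to 7.29 CPM in sgCtrl and 4.56 to 5.53 CPM in Ctrl. Markers of fibroblasts summed to 27252 to 28495 CPM in PURPL#1-OE and 29469.8 to 30744 CPM in PURPL#2-OE, against 22589 to 23054 CPM in Ctrl. Of those 8 markers, 6 rose in PURPL#1-OE (all genes tested 19.5%) and 7 in PURPL#2-OE (all genes 18.9%), and none was at 0. Their part in the results on the overexpression groups was not tested. The summed level ranged over 16165 to 16238 CPM with sgRNA-PURPL#1 and 15605 to 16209 CPM with sgRNA-PURPL#2, against 15466 to 16742 CPM in sgCtrl. Single markers did change there. With sgRNA-PURPL#1, 3 of the 8 rose (all genes 11.6%) and 1 fell (all genes 12.9%). With sgRNA-PURPL#2, 3 rose (all genes 11.9%) and 2 fell (all genes 12.4%). The counts were not scaled by gene length and the tables were normalized separately, so levels were compared within a gene and within a table only.

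Not all members could be measured. NAGLU and IDS, enzymes of heparan sulfate breakdown, and CTSD, the aspartic peptidase cathepsin D, had 0 counts in all 18 libraries. Same-strand neighbours cover 96.7%, 99.7% and 94.8% of their annotated spans, and a 0 here is no measure of expression. HEXA, a subunit of beta-hexosaminidase, shares 98.8% of its span and had 3 to 19 counts in a knockdown library and 0 to 7 in an overexpression library. TPP1 shares 57.3% of its span, MAN2B1 18.8% and GLB1 6.69%, the last with TMPPE, so their levels are uncertain where reads of the shared stretch were not counted. In all, 9 members overlap a same-strand gene and 5 of them by more than 50% of their span. After the filter on low counts, 32 members were tested for knockdown and 31 for overexpression, where HEXA was left out.

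Most lysosomal genes that passed the test against a control were lower than in it. With each guide 25% of the members tested passed, close to the share of all genes, and with overexpression more passed, among the members as among all genes. Against sgCtrl, SGSH and MITF rose with sgRNA-PURPL#1 (2 of 32 members, all genes tested 11.6%) and GUSB, ARSA, ARSB, LIPA, CTSK and GM2A fell (6 members, all genes 12.9%). With sgRNA-PURPL#2, 0 members rose (all genes 11.9%) and HEXA, GAA, ARSA, CTSK, CTSL, GM2A, LAMP1 and ATP6V1A fell (8 of 32, all genes 12.4%). Against Ctrl, 4 of 31 members rose in PURPL#1-OE (all genes 19.5%) and 10 fell (all genes 20.1%). In PURPL#2-OE 7 rose (all genes 18.9%) and 11 fell (all genes 19.6%). Genes were called at an adjusted p under 0.05 in edgeR's quasi-likelihood test with Benjamini-Hochberg adjustment over all genes tested. In these bulk cultures, a change in the share of cells that express a gene and a change in RNA per cell cannot be told apart.

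The median log2 fold change of the members tested was -0.052 with sgRNA-PURPL#1 and -0.14 with sgRNA-PURPL#2, and -0.12 in PURPL#1-OE and -0.16 in PURPL#2-OE. The medians of all genes tested were 0.0037, -0.0014, 0.0076 and 0.0069 in the same comparisons. Both guides share sgCtrl and both overexpression groups share Ctrl, so calls common to a pair are not independent. The share of all genes that passed in both comparisons of a pair, or in all 4, was not computed. The members below are therefore listed without a background to set them against. ARSA, CTSK and GM2A fell with both guides. GAA, TFEB and MITF rose in both overexpression groups, and NEU1, FUCA1, CTSB, CTSK, CTSL, CTSS and ATP6V1C1 fell in both. CTSK was the one member that passed in all 4 comparisons with a control, and it fell in each. GLA, CTSZ, LAMP2, MCOLN1, ATP6V0D1 and ATP6V1H passed in none of the 4.

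**Figure D1:**
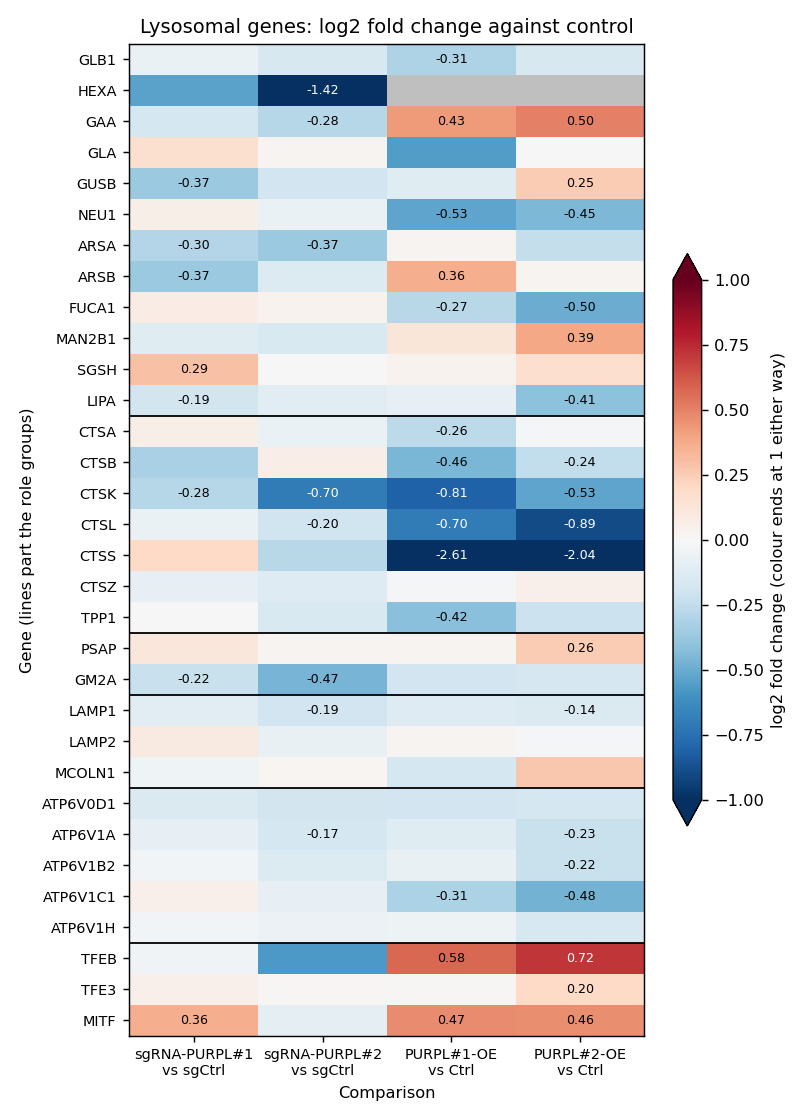
Log2 fold change of the 32 lysosomal genes tested in at least 1 table (rows, ordered by role) in the 4 comparisons with a control (columns), colour from blue (lower than control) to red (higher), ending at 1 either way; grey marks HEXA where it was not tested. Printed values are those that passed the test: CTSK is blue and printed in all 4 columns, and the peptidase rows from CTSA to TPP1 are mostly blue in the overexpression columns.

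TFEB and MITF rose in both overexpression groups, and TFE3 in 1 of them. The libraries of the overexpression table whose columns carry no replicate number are called unnumbered library a, b and c, letters that only name them. TFEB, named as a master regulator of lysosomal genes, had low counts, 25 to 94 per library. It measured 3.11, 3.82 and 3.09 CPM in PURPL#1-OE and 3.52, 4.35 and 3.16 CPM in PURPL#2-OE, against 2.34, 2.38 and 1.91 CPM in Ctrl. All 6 overexpression libraries lay above the 3 Ctrl libraries. TFEB rose with log2 fold changes of 0.58 ± 0.187 (SE, adjusted p = 0.0144) in PURPL#1-OE and 0.72 ± 0.188 (SE, adjusted p = 0.00289) in PURPL#2-OE. The PURPL#1-OE call was lost without Ctrl replicate 3, or PURPL#1-OE unnumbered library b (each left out alone, adjusted p up to 0.0784). With the guides TFEB measured 4.59, 5.07 and 2.88 CPM in sgRNA-PURPL#1 and 3.39, 2.098 and 3.21 CPM in sgRNA-PURPL#2, against 3.38, 4.90 and 4.62 CPM in sgCtrl, with overlapping ranges. The log2 fold changes were -0.039 ± 0.216 (SE, adjusted p = 0.926) and -0.57 ± 0.230 (SE, adjusted p = 0.0702), and neither passed.

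MITF, the family member best known from melanocytes, measured 75.0, 77.3 and 69.8 CPM in PURPL#1-OE and 74.0, 72.1 and 74.1 CPM in PURPL#2-OE, against 51.3, 54.8 and 53.8 CPM in Ctrl. It rose in both, with log2 fold changes of 0.47 ± 0.0572 (SE, adjusted p = 5.71e-08) and 0.46 ± 0.0576 (SE, adjusted p = 1.15e-07) and no overlap between the overexpression libraries and Ctrl. In the knockdown table MITF measured 70.3, 76.8 and 70.7 CPM with sgRNA-PURPL#1 and 51.8, 57.0 and 50.8 CPM with sgRNA-PURPL#2, against 50.6, 58.8 and 59.97 CPM in sgCtrl. It therefore stood above sgCtrl with sgRNA-PURPL#1 only: its log2 fold change there was 0.36 ± 0.0730 (SE, adjusted p = 0.000350), and with sgRNA-PURPL#2 it was -0.087 ± 0.0748 (SE, adjusted p = 0.438). The log2 difference of sgRNA-PURPL#2 from sgRNA-PURPL#1, -0.45 ± 0.0734 (SE, adjusted p = 6.51e-05), passed the test. The 6 melanocyte markers summed to 0.107 to 0.949 CPM in PURPL#1-OE and 1.16 to 1.23 CPM in PURPL#2-OE, against 0.568 to 0.938 CPM in Ctrl. With the guides that sum was 0.545 to 0.959 CPM with sgRNA-PURPL#1 and 0.496 to 1.43 CPM with sgRNA-PURPL#2, against 0.260 to 0.940 CPM in sgCtrl. MLANA was at 0 with sgRNA-PURPL#1, in sgCtrl, in PURPL#2-OE and in Ctrl, SOX10 at 0 in the 3 knockdown groups, and TYR at 0 with both guides and in Ctrl. Of these markers, 0 were tested for knockdown and 2 for overexpression, of which TYRP1 rose in PURPL#2-OE, and their part in the MITF result was not tested.

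TFE3, which like TFEB moves to the nucleus when mTORC1 is inactive, rose in PURPL#2-OE only with a log2 fold change of 0.20 ± 0.0611 (SE, adjusted p = 0.00918), and that call was lost without Ctrl replicate 1, or PURPL#2-OE unnumbered library b (each left out alone, adjusted p up to 0.0990). Its level ranged over 74.5 to 75.7 CPM in PURPL#1-OE and 79.0 to 95.2 CPM in PURPL#2-OE, against 71.8 to 76.6 CPM in Ctrl. The control of the family was followed in a list of 19 genes, of which 16 were tested in each experiment. Most belong to the Rag GTPases, folliculin, mTORC1 and their partners, and TFEC and ZKSCAN3 were listed besides. FLCN (folliculin), FNIP1 and TFEC were not tested for overexpression. Of the genes tested, 2 were higher and 1 lower with sgRNA-PURPL#1, and 2 higher and 2 lower with sgRNA-PURPL#2. In PURPL#1-OE 1 rose and 2 fell, and in PURPL#2-OE 2 rose and 2 fell. Called were 18.8% and 25% with the guides and 18.8% and 25% with overexpression, shares near or below those of all genes (24.5%, 24.4%, 39.6% and 38.5%). RRAGC, a Rag GTPase that recruits mTORC1 to the lysosome, fell in both overexpression groups with log2 fold changes of -0.31 ± 0.0959 (SE, adjusted p = 0.0108) and -0.64 ± 0.0995 (SE, adjusted p = 5.10e-06). RRAGD, its close relative, fell with sgRNA-PURPL#2 and in PURPL#1-OE, with log2 fold changes of -0.60 ± 0.0963 (SE, adjusted p = 1.73e-05) and -0.81 ± 0.243 (SE, adjusted p = 0.00827).

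Windows around a RefSeq gene start are shown for GLB1 and CTSL, which hold no match to the E-box of the TFEB family, and for GAA, MCOLN1 and LAMP1, which hold several, because TFEB and MITF rose with overexpression while these 5 genes did not move together. Each window runs from 250 bases before to 50 bases after the start that the RefSeq table gives in GRCh38.p14, 5′ to 3′ on the strand of the gene, with matches to TCACGTGA in capitals and, outside those, matches to CACGTG in capitals. The windows lie at chr3:33096773-33097072 (minus strand), chr9:87725869-87726168 (plus strand), chr17:80101331-80101630 (plus strand), chr19:7522374-7522673 (plus strand) and chr13:113296989-113297288 (plus strand).
GLB1: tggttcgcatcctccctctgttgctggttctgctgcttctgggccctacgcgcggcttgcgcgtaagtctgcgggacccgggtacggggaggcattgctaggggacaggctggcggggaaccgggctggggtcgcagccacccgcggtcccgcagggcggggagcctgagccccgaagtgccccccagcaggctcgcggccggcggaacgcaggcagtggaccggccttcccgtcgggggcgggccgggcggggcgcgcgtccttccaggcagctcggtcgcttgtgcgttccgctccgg
CTSL: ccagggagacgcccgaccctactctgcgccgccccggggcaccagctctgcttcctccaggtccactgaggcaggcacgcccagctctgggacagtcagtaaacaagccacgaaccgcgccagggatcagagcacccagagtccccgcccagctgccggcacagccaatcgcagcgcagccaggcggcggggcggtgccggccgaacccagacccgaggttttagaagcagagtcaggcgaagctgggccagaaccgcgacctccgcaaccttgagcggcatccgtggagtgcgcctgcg
GAA: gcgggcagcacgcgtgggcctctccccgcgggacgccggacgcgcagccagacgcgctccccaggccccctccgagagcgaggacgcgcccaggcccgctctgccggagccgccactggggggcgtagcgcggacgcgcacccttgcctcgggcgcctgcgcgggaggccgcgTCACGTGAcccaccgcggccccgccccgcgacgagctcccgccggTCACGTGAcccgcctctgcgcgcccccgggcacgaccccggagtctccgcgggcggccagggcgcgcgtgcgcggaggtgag
MCOLN1: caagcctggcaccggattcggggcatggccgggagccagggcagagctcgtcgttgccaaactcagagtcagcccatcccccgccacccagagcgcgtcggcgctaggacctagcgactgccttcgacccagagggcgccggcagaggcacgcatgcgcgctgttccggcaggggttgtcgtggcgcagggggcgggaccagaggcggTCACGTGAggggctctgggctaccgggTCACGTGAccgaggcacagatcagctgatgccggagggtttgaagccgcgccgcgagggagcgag
LAMP1: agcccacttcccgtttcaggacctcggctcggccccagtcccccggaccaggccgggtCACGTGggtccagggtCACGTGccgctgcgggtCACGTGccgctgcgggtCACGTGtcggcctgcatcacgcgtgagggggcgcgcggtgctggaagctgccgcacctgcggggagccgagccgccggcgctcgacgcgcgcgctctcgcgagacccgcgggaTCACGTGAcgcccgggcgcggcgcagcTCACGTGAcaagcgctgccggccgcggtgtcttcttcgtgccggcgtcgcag

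Both letter strings are palindromes, so 1 search covers both strands, and every TCACGTGA also holds a CACGTG. RefSeq windows were at hand for 22 of the 35 members, 29 windows in all, and 13 members were without one. TCACGTGA stood in 5 of the 29 windows, those of LAMP1, ATP6V0D1, GAA, MCOLN1 and CTSA, and in 344 of all 35116 promoter windows (0.98%). CACGTG stood in 8 of the 29, which adds ARSB, NEU1 and CTSD, and in 7.26% of all windows. Of the 5 genes with TCACGTGA, GAA rose in both overexpression groups, CTSA fell in PURPL#1-OE, LAMP1 fell in PURPL#2-OE, and ATP6V0D1 and MCOLN1 passed in neither. The GLB1 and CTSL windows lie wholly inside the gene spans of the count tables, downstream of the 5′ ends given there, so the lack of a match in them says nothing of the sequence upstream of those ends. A match of letters is not a binding site, and whether any of these factors was bound was not measured.

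GLB1 fell in PURPL#1-OE and passed in no other comparison. It lies on the minus strand of chromosome 3 from 32996609 to 33097202 (hg38) and had 478 to 1232 counts per library. GLB1 measured 42.8, 44.6 and 44.2 CPM with sgRNA-PURPL#1 and 43.1, 40.1 and 40.2 CPM with sgRNA-PURPL#2, against 42.4, 47.0 and 48.0 CPM in sgCtrl. It measured 32.7, 34.5 and 37.4 CPM in PURPL#1-OE and 39.7, 40.6 and 35.7 CPM in PURPL#2-OE, against 41.1, 48.2 and 40.0 CPM in Ctrl. The PURPL#1-OE libraries all lay below Ctrl, and the other 3 groups overlapped with their control. GLB1 fell in PURPL#1-OE with a log2 fold change of -0.31 ± 0.0756 (SE, adjusted p = 0.00149), to 80.7% of Ctrl. Its log2 fold change was -0.16 ± 0.0758 (SE, adjusted p = 0.0970) in PURPL#2-OE, -0.064 ± 0.0729 (SE, adjusted p = 0.579) with sgRNA-PURPL#1 and -0.16 ± 0.0733 (SE, adjusted p = 0.123) with sgRNA-PURPL#2, none of which passed. Without Ctrl replicate 3 the PURPL#2-OE value was -0.21 (adjusted p = 0.0431) and passed, and without sgCtrl replicate 1 the sgRNA-PURPL#2 value was -0.21 (adjusted p = 0.0366) and passed. Group means were 34.8 ± 2.38 in PURPL#1-OE and 38.7 ± 2.62 in PURPL#2-OE, against 43.1 ± 4.44 in Ctrl, and 43.9 ± 0.954 with sgRNA-PURPL#1 and 41.1 ± 1.72 with sgRNA-PURPL#2, against 45.8 ± 2.98 in sgCtrl (CPM ± SD, n = 3 each).

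Ranked by fold change from the lowest, GLB1 was number 16 of 32 members with sgRNA-PURPL#1 and 13 of 32 with sgRNA-PURPL#2, and 9 of 31 in PURPL#1-OE and 16 of 31 in PURPL#2-OE. The median log2 fold change of the other members was -0.04 and -0.13 with the guides and -0.12 and -0.15 in the overexpression groups. As a share of all counts on the 35 members, GLB1 took 0.857 to 0.896% with sgRNA-PURPL#1 and 0.883 to 0.900% with sgRNA-PURPL#2, against 0.762 to 0.985% in sgCtrl. The share was 1.03 to 1.21% in PURPL#1-OE and 1.09 to 1.21% in PURPL#2-OE, against 1.10 to 1.33% in Ctrl, and the ranges of all 4 groups overlapped with their control. Together the members took 0.481 to 0.517% of all counts with sgRNA-PURPL#1 and 0.444 to 0.487% with sgRNA-PURPL#2, against 0.484 to 0.559% in sgCtrl. They took 0.303 to 0.317% in PURPL#1-OE and 0.323 to 0.331% in PURPL#2-OE, against 0.365 to 0.376% in Ctrl, so all 6 overexpression libraries lay below Ctrl. Abundant members weigh most in this sum, which is also the base of the GLB1 share. In Ctrl PSAP averaged 922 CPM, CTSK 551 CPM and CTSL 375 CPM. CTSK and CTSL fell in both overexpression groups, and PSAP rose in PURPL#2-OE. Of the GLB1 relatives, GLB1L alone was tested, and it rose with sgRNA-PURPL#1, at a log2 fold change of 0.53 ± 0.146 (SE, adjusted p = 0.00751) and passed in no other comparison with a control.

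As context, 5 of a panel of 8 other genes read as signs of senescence are given. CDKN1A, which encodes the cell cycle inhibitor p21, had log2 fold changes of 0.16 ± 0.0595 (SE, adjusted p = 0.0495) with sgRNA-PURPL#1 and 0.20 ± 0.0594 (SE, adjusted p = 0.0113) with sgRNA-PURPL#2, both passing, and -0.15 ± 0.0659 (SE, adjusted p = 0.0649) in PURPL#1-OE, which did not pass, and -0.23 ± 0.0666 (SE, adjusted p = 0.00791) in PURPL#2-OE, which did. LMNB1, the lamin that is lost in senescent cells, fell in all 4 with log2 fold changes of -0.72 ± 0.112 and -1.03 ± 0.116 with the guides and -1.31 ± 0.102 and -1.25 ± 0.103 in the overexpression groups. MKI67, a marker of dividing cells, fell in all 4 as well with log2 fold changes of -1.0002 ± 0.0973 and -0.67 ± 0.0961 with the guides and -1.54 ± 0.0666 and -1.47 ± 0.0666 in the overexpression groups (log2 ± SE). IL6, a cytokine known to be secreted by senescent cells, fell in both overexpression groups, with log2 fold changes of -2.79 ± 0.141 (SE, adjusted p = 2.52e-16) and -2.87 ± 0.146 (SE, adjusted p = 3.51e-16), and did not pass with sgRNA-PURPL#1, at 0.18 ± 0.368 (SE, adjusted p = 0.773), or sgRNA-PURPL#2, at 0.86 ± 0.336 (SE, adjusted p = 0.0604). CDKN2A, which encodes p16, passed in none.

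**Figure D2:**
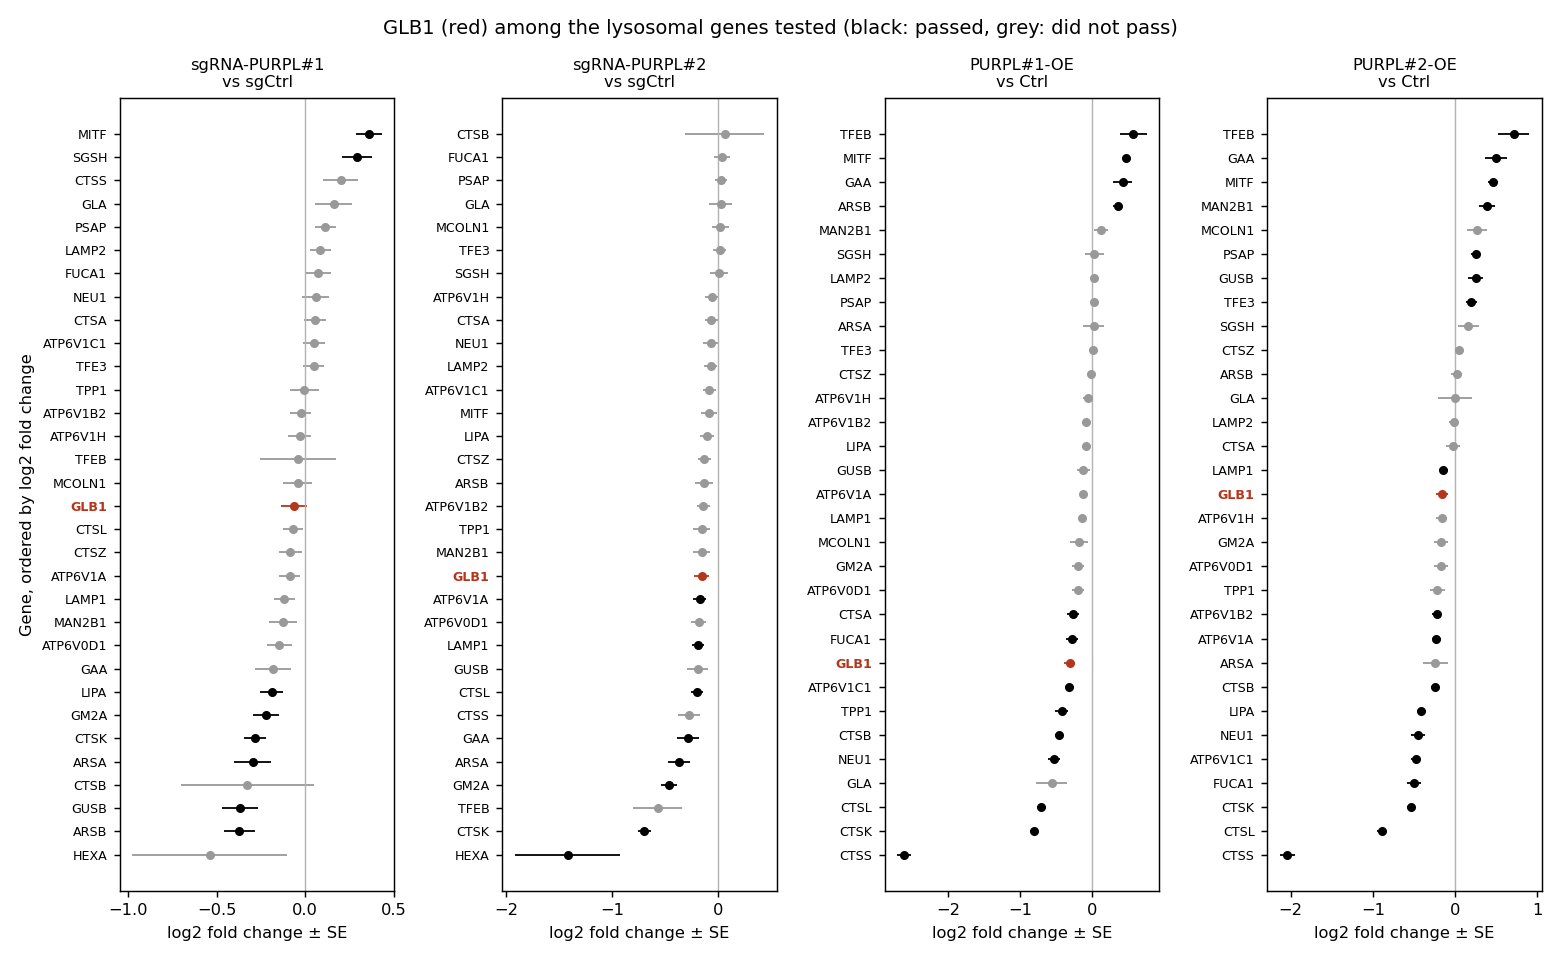
Log2 fold change with its SE (horizontal axis) of every lysosomal gene tested in each comparison with a control, ordered from highest to lowest down the page, with GLB1 in red, genes that passed in black and the rest in grey. GLB1 sits near the middle of the order with both guides and in PURPL#2-OE and in the lower part, at number 9 from the lowest of 31, in PURPL#1-OE.

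Among the other glycosidases, NEU1 and FUCA1 fell and GAA rose with overexpression. NEU1, the lysosomal sialidase, works in a complex with beta-galactosidase and CTSA. It measured 19.9, 17.4 and 18.0 CPM in PURPL#1-OE and 21.4, 19.3 and 17.9 CPM in PURPL#2-OE, against 27.0, 27.4 and 25.4 CPM in Ctrl. All 6 overexpression libraries lay below Ctrl. NEU1 fell with log2 fold changes of -0.53 ± 0.0849 (SE, adjusted p = 7.40e-06) in PURPL#1-OE and -0.45 ± 0.0856 (SE, adjusted p = 8.27e-05) in PURPL#2-OE. With the guides it measured 68.9, 61.5 and 65.1 CPM in sgRNA-PURPL#1 and 56.2, 56.6 and 66.2 CPM in sgRNA-PURPL#2, against 64.6, 66.8 and 56.0 CPM in sgCtrl, ranges that overlapped and a test that did not pass.

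FUCA1, which removes fucose from glycoproteins, measured 29.2, 35.1 and 36.0 CPM in PURPL#1-OE and 29.7, 25.9 and 30.3 CPM in PURPL#2-OE, against 36.6, 44.99 and 39.4 CPM in Ctrl. It fell with log2 fold changes of -0.27 ± 0.0851 (SE, adjusted p = 0.0117) and -0.50 ± 0.0871 (SE, adjusted p = 4.47e-05), with no overlap, and the PURPL#1-OE call was lost without Ctrl replicate 2, or PURPL#1-OE unnumbered library a (each left out alone, adjusted p up to 0.114). FUCA1 measured, with the guides, 42.3, 45.6 and 46.1 CPM with sgRNA-PURPL#1 and 43.9, 42.2 and 44.7 CPM with sgRNA-PURPL#2, against 41.0, 44.3 and 42.1 CPM in sgCtrl, and it passed with neither guide.

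GAA, the acid alpha-glucosidase that breaks down glycogen, went the other way. It measured 8.23, 8.77 and 7.32 CPM in PURPL#1-OE and 10.3, 7.36 and 8.03 CPM in PURPL#2-OE, against 5.73, 6.22 and 6.09 CPM in Ctrl. Each overexpression library lay above each Ctrl library, and GAA rose with log2 fold changes of 0.43 ± 0.130 (SE, adjusted p = 0.00884) and 0.50 ± 0.131 (SE, adjusted p = 0.00279). In the knockdown table it measured 27.4, 26.2 and 28.0 CPM with sgRNA-PURPL#1 and 28.5, 24.3 and 23.1 CPM with sgRNA-PURPL#2, against 33.4, 34.0 and 25.1 CPM in sgCtrl. One sgCtrl library lay within the range of the sgRNA-PURPL#2 libraries. The fall with sgRNA-PURPL#2, a log2 fold change of -0.28 ± 0.102 (SE, adjusted p = 0.0435), was lost without sgCtrl replicate 1 or 2, sgRNA-PURPL#1 replicate 1, 2 or 3, or sgRNA-PURPL#2 replicate 2 or 3 (each left out alone, adjusted p up to 0.233).

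GUSB, the beta-glucuronidase, measured 14.005, 16.5 and 15.2 CPM with sgRNA-PURPL#1 and 17.6, 17.5 and 16.4 CPM with sgRNA-PURPL#2, against 20.4, 18.2 and 20.4 CPM in sgCtrl. It fell with sgRNA-PURPL#1, at a log2 fold change of -0.37 ± 0.1002 (SE, adjusted p = 0.00665). In the overexpression table it measured 17.0, 17.5 and 18.8 CPM in PURPL#1-OE and 23.1, 24.1 and 21.6 CPM in PURPL#2-OE, against 17.9, 22.3 and 17.5 CPM in Ctrl. One Ctrl library stood among the PURPL#2-OE libraries, and the rise there, a log2 fold change of 0.25 ± 0.0927 (SE, adjusted p = 0.0316), was lost without Ctrl replicate 1 or 3, or PURPL#2-OE unnumbered library a or b (each left out alone, adjusted p up to 0.163). MAN2B1, the acid alpha-mannosidase, measured 15.6, 14.3 and 14.004 CPM in PURPL#1-OE and 16.6, 17.6 and 18.3 CPM in PURPL#2-OE, against 14.4, 14.1 and 11.5 CPM in Ctrl. It rose in PURPL#2-OE with a log2 fold change of 0.39 ± 0.0980 (SE, adjusted p = 0.00220), with no overlap. With the guides MAN2B1 measured 35.01, 40.7 and 37.0 CPM in sgRNA-PURPL#1 and 34.5, 39.0 and 36.6 CPM in sgRNA-PURPL#2, against 43.9, 41.1 and 37.8 CPM in sgCtrl, and did not pass. GLA, the alpha-galactosidase A that clears globotriaosylceramide, measured 8.01 to 11.5 CPM in PURPL#1-OE, 11.5 to 17.2 CPM in PURPL#2-OE and 11.8 to 18.7 CPM in Ctrl and passed in no comparison. HEXA fell with sgRNA-PURPL#2, where its libraries had 7, 6 and 3 counts, against 13, 15 and 16 counts in sgCtrl. The log2 fold change of HEXA was -1.42 ± 0.499 (SE, adjusted p = 0.0364), and the call was lost without sgCtrl replicate 2 or 3, or sgRNA-PURPL#2 replicate 1, 2 or 3 (each left out alone, adjusted p up to 0.169).

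The sulfatases did not move as one. ARSA, which removes sulfate from cerebrosides, measured 17.1, 16.4 and 16.3 CPM with sgRNA-PURPL#1 and 15.3, 14.9 and 17.1 CPM with sgRNA-PURPL#2, against 21.8, 22.0 and 17.5 CPM in sgCtrl. All 6 guide libraries lay below sgCtrl, though the lowest sgCtrl library was close to the highest of them. ARSA fell with log2 fold changes of -0.30 ± 0.104 (SE, adjusted p = 0.0354) and -0.37 ± 0.104 (SE, adjusted p = 0.00901). The sgRNA-PURPL#1 call was lost without sgCtrl replicate 1 or 2, or sgRNA-PURPL#1 replicate 1, 2 or 3 (each left out alone, adjusted p up to 0.165), and the sgRNA-PURPL#2 call without sgCtrl replicate 2 (adjusted p = 0.0669). In the overexpression table ARSA measured 4.76, 4.68 and 4.87 CPM in PURPL#1-OE and 4.64, 3.66 and 3.69 CPM in PURPL#2-OE, against 4.68, 5.16 and 4.13 CPM in Ctrl, and passed in neither group.

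ARSB, which removes sulfate from dermatan sulfate, measured 50.5, 47.7 and 49.8 CPM in PURPL#1-OE and 39.7, 38.0 and 39.5 CPM in PURPL#2-OE, against 40.8, 39.1 and 35.1 CPM in Ctrl. It stood above Ctrl in PURPL#1-OE only, with a log2 fold change of 0.36 ± 0.0650 (SE, adjusted p = 4.14e-05), and the log2 difference of PURPL#2-OE from PURPL#1-OE was -0.34 ± 0.0653 (SE, adjusted p = 0.000512). ARSB in the knockdown libraries measured 37.6, 36.9 and 42.9 CPM with sgRNA-PURPL#1 and 48.4, 45.2 and 44.4 CPM with sgRNA-PURPL#2, against 42.6, 53.7 and 55.0 CPM in sgCtrl. It fell with sgRNA-PURPL#1, at a log2 fold change of -0.37 ± 0.0863 (SE, adjusted p = 0.00170), although the lowest sgCtrl library lay within the range of that group. SGSH, the heparan sulfatase, rose with sgRNA-PURPL#1, which gave 26.9 to 29.9 CPM, against 22.8 to 23.7 CPM in sgCtrl. SGSH had a log2 fold change of 0.29 ± 0.0864 (SE, adjusted p = 0.0117), a call lost without sgRNA-PURPL#1 replicate 3 (adjusted p = 0.0658).

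LIPA, the acid lipase that frees cholesterol from its esters, fell in PURPL#2-OE to 123 to 133 CPM, against 163 to 175 CPM in Ctrl, a log2 fold change of -0.41 ± 0.0529 (SE, adjusted p = 2.06e-07). PURPL#1-OE gave 153 to 168 CPM and did not pass. LIPA also fell with sgRNA-PURPL#1, at a log2 fold change of -0.19 ± 0.0652 (SE, adjusted p = 0.0343), a call lost without sgCtrl replicate 3, or sgRNA-PURPL#1 replicate 1, 2 or 3 (each left out alone, adjusted p up to 0.149). The annotated span of LIPA holds the interferon-induced genes IFIT1, IFIT2 and IFIT3 on the opposite strand, and whether the counting used strand is not given in the sources. IFIT1 averaged 160.1 CPM in PURPL#1-OE and 106 CPM in PURPL#2-OE, against 1268 CPM in Ctrl. The part of reads from these genes in the LIPA counts was not tested.

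CTSS, CTSK and CTSL had the largest falls among the peptidases in both overexpression groups. Of the 7 peptidases tested, 6 fell in PURPL#1-OE (all genes 20.1%) and 4 in PURPL#2-OE (all genes 19.6%) and 0 rose in either, with median log2 fold changes of -0.46 and -0.24. CTSA, CTSZ and TPP1 did not pass in PURPL#2-OE, nor CTSZ in PURPL#1-OE. With sgRNA-PURPL#1 1 of 7 fell and with sgRNA-PURPL#2 2 of 7, beside 12.9% and 12.4% of all genes, with medians of -0.069 and -0.15. CTSS and CTSK are neighbours on the minus strand of chromosome 1, at 150730079 to 150765957 and 150794880 to 150809577, and CTSL lies on the plus strand of chromosome 9 at 87724051 to 87731469 (hg38).

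CTSS, the cysteine cathepsin that trims the invariant chain in antigen-presenting cells, measured 5.83, 5.62 and 7.200 CPM in PURPL#1-OE and 9.38, 8.89 and 9.38 CPM in PURPL#2-OE, against 38.3, 39.4 and 35.9 CPM in Ctrl. The highest overexpression library was far below the lowest Ctrl library. CTSS fell with log2 fold changes of -2.61 ± 0.0979 (SE, adjusted p = 1.55e-19) in PURPL#1-OE and -2.04 ± 0.0949 (SE, adjusted p = 3.74e-17) in PURPL#2-OE, to 16.4% and 24.3% of Ctrl. Those are the lowest log2 fold changes of any member in these comparisons. With the guides it measured 20.9, 22.3 and 22.9 CPM in sgRNA-PURPL#1 and 17.4, 13.5 and 16.5 CPM in sgRNA-PURPL#2, against 18.2, 20.5 and 18.7 CPM in sgCtrl. Neither guide passed against sgCtrl, and sgRNA-PURPL#2 lay below sgRNA-PURPL#1 with a log2 difference of -0.48 ± 0.102 (SE, adjusted p = 0.00182). The 6 macrophage and leukocyte markers summed to 1.503 to 2.61 CPM in PURPL#1-OE and 1.67 to 2.19 CPM in PURPL#2-OE, against 2.07 to 2.89 CPM in Ctrl. TYROBP was at 0 in these 3 groups and ITGAM in PURPL#1-OE, and 0 of the 2 markers tested passed against Ctrl.

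CTSK, the collagen-cutting cathepsin of osteoclasts that fibroblasts also make, measured 318, 303 and 323 CPM in PURPL#1-OE and 382, 384 and 377 CPM in PURPL#2-OE, against 551, 562 and 539 CPM in Ctrl. In the knockdown table it measured 829, 891 and 884 CPM with sgRNA-PURPL#1 and 672, 636 and 647 CPM with sgRNA-PURPL#2, against 1145, 1044 and 979.8 CPM in sgCtrl. Every library of the 4 groups lay below its own control. CTSK fell with log2 fold changes of -0.81 ± 0.0489 (SE, adjusted p = 2.09e-14) in PURPL#1-OE, -0.53 ± 0.0487 (SE, adjusted p = 2.77e-10) in PURPL#2-OE, -0.28 ± 0.0604 (SE, adjusted p = 0.000641) with sgRNA-PURPL#1 and -0.70 ± 0.0608 (SE, adjusted p = 2.79e-10) with sgRNA-PURPL#2. None of these 4 calls was lost when any 1 library was left out. CTSK RNA was therefore lower than in control both where PURPL was lowered and where it was raised.

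CTSL, a broad cysteine cathepsin, measured 224, 229 and 239 CPM in PURPL#1-OE and 191, 202 and 214 CPM in PURPL#2-OE, against 387, 341 and 396 CPM in Ctrl. It fell with log2 fold changes of -0.70 ± 0.0570 (SE, adjusted p = 2.07e-11) and -0.89 ± 0.0575 (SE, adjusted p = 1.25e-13), with a wide gap between the groups. With the guides it measured 325, 330.5 and 329 CPM in sgRNA-PURPL#1 and 308, 289.8 and 301 CPM in sgRNA-PURPL#2, against 368, 338 and 328 CPM in sgCtrl. The fall with sgRNA-PURPL#2, a log2 fold change of -0.20 ± 0.0579 (SE, adjusted p = 0.0105), was lost without sgRNA-PURPL#2 replicate 2 (adjusted p = 0.0671).

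CTSB, another broad cysteine cathepsin, measured 167, 191 and 167 CPM in PURPL#1-OE and 199, 205 and 206 CPM in PURPL#2-OE, against 234, 242 and 244 CPM in Ctrl. It fell with log2 fold changes of -0.46 ± 0.0540 (SE, adjusted p = 3.91e-08) and -0.24 ± 0.0539 (SE, adjusted p = 0.000551), with no overlap. CTSB in the knockdown libraries measured 254, 292 and 341 CPM with sgRNA-PURPL#1 and 557, 304 and 299 CPM with sgRNA-PURPL#2, against 547, 295 and 268 CPM in sgCtrl. Replicate 1 of sgRNA-PURPL#2 and replicate 1 of sgCtrl stood far above the rest, and with an SE of 0.373 on the log2 scale no difference could be detected. TPP1, which clips tripeptides, fell in PURPL#1-OE with a log2 fold change of -0.42 ± 0.0933 (SE, adjusted p = 0.000560), and CTSA, the protective protein of the NEU1 complex, with one of -0.26 ± 0.0882 (SE, adjusted p = 0.0290). The CTSA call was lost without Ctrl replicate 2, or PURPL#1-OE unnumbered library b or c (each left out alone, adjusted p up to 0.101). CTSZ ranged over 164 to 167 CPM in PURPL#1-OE and 172 to 174 CPM in PURPL#2-OE, within 156 to 175 CPM in Ctrl. Of the cystatins, the inhibitors of these cathepsins, 2 of 7 listed were tested, and CSTB fell in both overexpression groups with log2 fold changes of -0.56 ± 0.0937 (SE, adjusted p = 6.83e-05) and -0.26 ± 0.0933 (SE, adjusted p = 0.0339), while CST3 rose in PURPL#2-OE with a log2 fold change of 0.25 ± 0.0882 (SE, adjusted p = 0.0271).

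**Figure D3:**
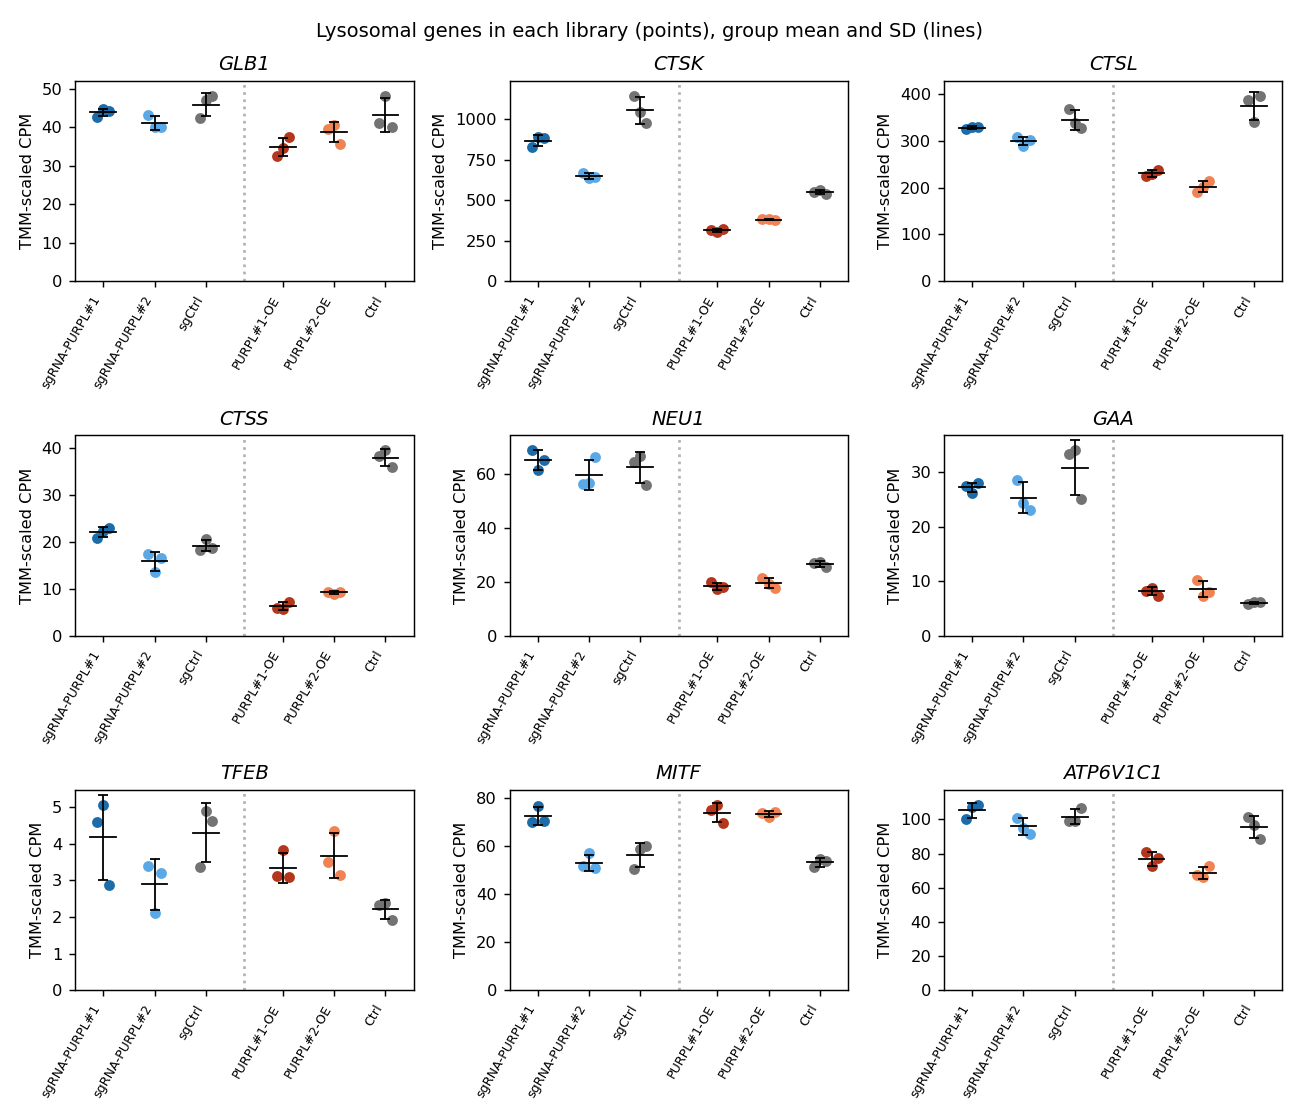
Level in TMM-scaled CPM (vertical axis, from 0) of 9 lysosomal genes in each of the 18 libraries, with points for libraries and lines for the group mean and SD; the dotted line parts the knockdown groups from the separately normalized overexpression groups. CTSS in the overexpression groups lies between 5.62 and 9.38 CPM, against 35.9 to 39.4 CPM in Ctrl, and CTSK lies below the control in all 4 groups.

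The activator proteins, which lift lipids out of membranes for the hydrolases, divided. GM2A, the activator of ganglioside breakdown, measured 38.3, 35.6 and 40.1 CPM with sgRNA-PURPL#1 and 31.4, 33.5 and 31.2 CPM with sgRNA-PURPL#2, against 42.4, 43.9 and 46.3 CPM in sgCtrl. All guide libraries lay below sgCtrl. GM2A fell with log2 fold changes of -0.22 ± 0.0749 (SE, adjusted p = 0.0304) and -0.47 ± 0.0763 (SE, adjusted p = 2.43e-05), and the sgRNA-PURPL#1 call was lost without sgCtrl replicate 2 or 3, or sgRNA-PURPL#1 replicate 1 or 2 (each left out alone, adjusted p up to 0.154). In the overexpression table it measured 19.8, 22.4 and 18.7 CPM in PURPL#1-OE and 20.9, 21.9 and 19.1 CPM in PURPL#2-OE, against 23.9, 23.3 and 22.2 CPM in Ctrl, and did not pass. PSAP, the precursor of the saposins, rose in PURPL#2-OE to 1052 to 1146 CPM, against 869 to 957 CPM in Ctrl, a log2 fold change of 0.26 ± 0.0541 (SE, adjusted p = 0.000331).

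Among the membrane proteins, LAMP1, a heavily glycosylated protein of the lysosome wall, fell with sgRNA-PURPL#2 and in PURPL#2-OE. It ranged over 204 to 229.6 CPM with sgRNA-PURPL#2, against 237 to 254 CPM in sgCtrl, a log2 fold change of -0.19 ± 0.0590 (SE, adjusted p = 0.0185). PURPL#2-OE gave 97.6 to 111 CPM, against 114 to 121 CPM in Ctrl, a log2 fold change of -0.14 ± 0.0554 (SE, adjusted p = 0.0416). Both calls were weak: the knockdown call was lost without sgCtrl replicate 2, or sgRNA-PURPL#2 replicate 2 or 3 (each left out alone, adjusted p up to 0.123), and the overexpression call without Ctrl replicate 1 or 2, PURPL#1-OE unnumbered library a, b or c, or PURPL#2-OE unnumbered library a or b (each left out alone, adjusted p up to 0.270). LAMP2, its relative in chaperone-mediated autophagy, had log2 fold changes from -0.071 to 0.086 over the 4 comparisons, and MCOLN1, the calcium channel TRPML1, from -0.17 to 0.27, none passing.

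Of the 5 proton pump subunits, 1 fell in PURPL#1-OE (all genes 20.1%), 3 fell in PURPL#2-OE (all genes 19.6%), none rose, and 1 fell with sgRNA-PURPL#2 (all genes 12.4%). The PURPL#1-OE count is that of the background. ATP6V1C1, a V1 subunit at the joint between the soluble and the membrane part, measured 80.8, 72.5 and 77.6 CPM in PURPL#1-OE and 67.6, 66.1 and 72.5 CPM in PURPL#2-OE, against 101, 97.0 and 88.3 CPM in Ctrl. It fell with log2 fold changes of -0.31 ± 0.0600 (SE, adjusted p = 9.17e-05) and -0.48 ± 0.0608 (SE, adjusted p = 1.79e-07), with no overlap. With the guides it measured 100.1, 107 and 109 CPM in sgRNA-PURPL#1 and 101, 95.1 and 91.6 CPM in sgRNA-PURPL#2, against 99.0, 99.1 and 107 CPM in sgCtrl, and passed with neither. ATP6V1A, the catalytic subunit, fell in PURPL#2-OE and with sgRNA-PURPL#2, with log2 fold changes of -0.23 ± 0.0523 (SE, adjusted p = 0.000901) and -0.17 ± 0.0589 (SE, adjusted p = 0.0299), where the call was lost without sgCtrl replicate 3, or sgRNA-PURPL#2 replicate 2 or 3 (each left out alone, adjusted p up to 0.108). ATP6V1B2, which forms the V1 head with it, fell in PURPL#2-OE with a log2 fold change of -0.22 ± 0.0543 (SE, adjusted p = 0.00156). ATP6V0D1 and ATP6V1H passed nowhere. All 5 had a negative log2 fold change in both overexpression groups, with medians of -0.12 and -0.22. The same held with sgRNA-PURPL#2, where all 5 were negative with a median of -0.14. With sgRNA-PURPL#1 4 were negative and 1 positive, with a median of -0.030.

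Of 20 other pump subunits and accessory proteins, 15 were tested in the overexpression table, and 0 rose and 5 fell in PURPL#1-OE while 1 rose and 6 fell in PURPL#2-OE. Called in either direction were 33.3% and 46.7% of them, beside 39.6% and 38.5% of all genes. ATP6V1G1, a stator subunit, fell with log2 fold changes of -0.44 ± 0.0589 (SE, adjusted p = 3.88e-07) and -0.54 ± 0.0596 (SE, adjusted p = 1.01e-08). ATP6V0A1, the V0 subunit that sets where the pump sits, fell with log2 fold changes of -0.28 ± 0.0717 (SE, adjusted p = 0.00257) and -0.51 ± 0.0734 (SE, adjusted p = 1.53e-06). For knockdown 14 were tested, of which 1 rose and 1 fell with sgRNA-PURPL#1 and 0 rose and 4 fell with sgRNA-PURPL#2, or 14.3% and 28.6%, beside 24.5% and 24.4% of all genes.

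The guides differed from each other in 5 of 32 members (all genes tested, either direction, 9.25%), and in each the level was lower with sgRNA-PURPL#2. These were SGSH, CTSK, CTSS, GM2A and MITF, with log2 differences from -0.48 for CTSS to -0.24 for GM2A. The overexpression groups differed in 10 of 31 members (all genes tested, either direction, 12.4%). GUSB, CTSB, CTSK, CTSS, PSAP, MCOLN1 and TFE3 were higher in PURPL#2-OE than in PURPL#1-OE, and ARSB, LIPA and CTSL were lower. PURPL was also lower in PURPL#2-OE than in PURPL#1-OE, with a log2 difference of -0.50 ± 0.0571 (SE, adjusted p = 1.81e-07), and whether the PURPL level bears on these differences was not tested.

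The mean effect of both guides against sgCtrl was then set against the mean effect of both overexpression groups against Ctrl in a joint fit of all 18 libraries. In 6 of 32 members this difference was positive and passed (all genes tested 18%), and in 6 it was negative and passed (all genes 15.6%). The positive ones were NEU1, FUCA1, CTSK, CTSL, CTSS and ATP6V1C1, and the negative ones GAA, GUSB, ARSB, MAN2B1, TFEB and MITF. Of those that passed, CTSS had the highest value, 2.29 ± 0.120 (SE, adjusted p = 3.75e-20), and TFEB the lowest, -0.95 ± 0.257 (SE, adjusted p = 0.00327). HEXA, at -2.23 ± 1.03 (SE, adjusted p = 0.0937), was lower still but did not pass. In the single comparisons 3 members passed in opposite directions: GAA as lower with sgRNA-PURPL#2 and higher in both overexpression groups, GUSB as lower with sgRNA-PURPL#1 and higher in PURPL#2-OE, and ARSB as lower with sgRNA-PURPL#1 and higher in PURPL#1-OE. The share of all genes that passed in opposite directions was not computed. CTSK had a difference of 0.18 ± 0.0697 (SE, adjusted p = 0.0381) with both effects negative and the overexpression effect the larger in size, and that call was lost without sgCtrl replicate 2 or 3, sgRNA-PURPL#1 replicate 2 or 3, sgRNA-PURPL#2 replicate 1 or 3, Ctrl replicate 1 or 2, or PURPL#1-OE unnumbered library b (each left out alone, adjusted p up to 0.183). The call on GUSB was lost without sgCtrl replicate 1 or 3, or Ctrl replicate 1 or 3 (each left out alone, adjusted p up to 0.0793). GLB1 had a difference of 0.13 ± 0.0918 (SE, adjusted p = 0.298), which did not pass.

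**Figure D4:**
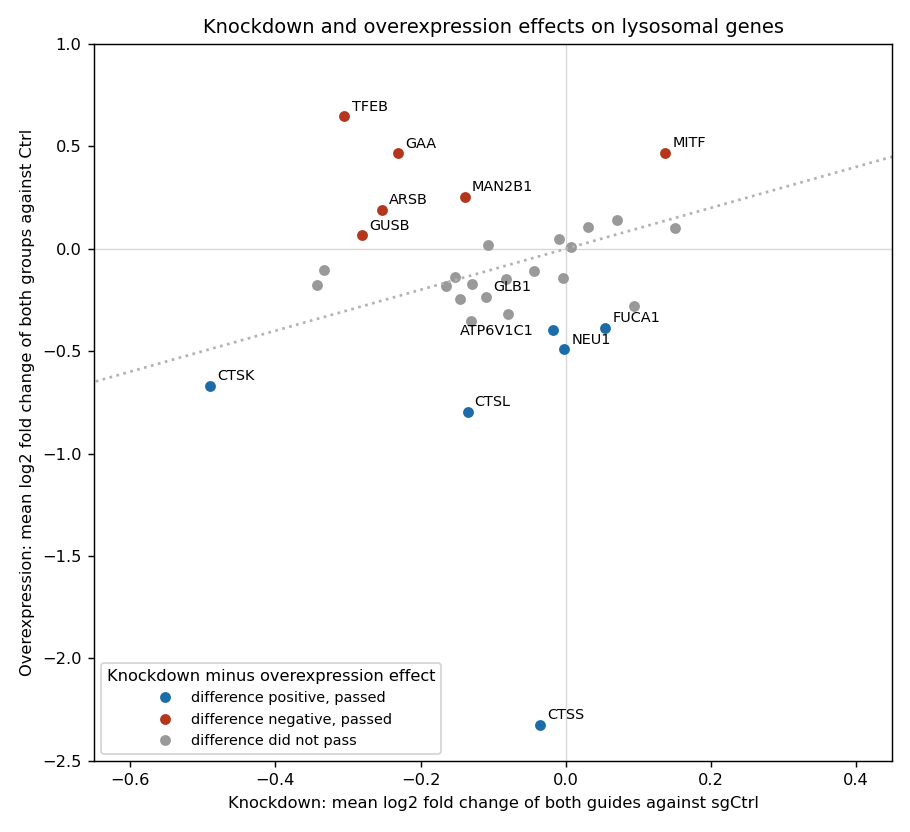
Mean log2 fold change of both overexpression groups against Ctrl (vertical axis) and of both guides against sgCtrl (horizontal axis) for the 31 lysosomal genes tested in both tables; the dotted line marks equal effects. Genes whose knockdown effect minus overexpression effect was positive and passed lie under the line, with CTSS lowest, and genes for which it was negative and passed lie over it, with TFEB highest.

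Of 40 other hydrolases and their activators 36 were tested, and 5 rose and 5 fell with sgRNA-PURPL#1, 1 rose and 9 fell with sgRNA-PURPL#2, 8 rose and 12 fell in PURPL#1-OE, and 7 rose and 11 fell in PURPL#2-OE. With the guides 27.8% of them were called in each comparison, near the 24.5% and 24.4% of all genes, and with overexpression 55.6% and 50%, beside 39.6% and 38.5%. SCPEP1, a serine carboxypeptidase, fell with log2 fold changes of -0.92 ± 0.0534 (SE, adjusted p = 6.66e-15) and -0.58 ± 0.0530 (SE, adjusted p = 2.56e-10) in PURPL#1-OE and PURPL#2-OE and rose with sgRNA-PURPL#1, at a log2 fold change of 0.54 ± 0.0600 (SE, adjusted p = 2.49e-08). SUMF1, which activates the sulfatases, rose with log2 fold changes of 0.48 ± 0.0586 (SE, adjusted p = 6.42e-08) and 0.56 ± 0.0589 (SE, adjusted p = 4.66e-09) in the same groups. All 6 genes of mannose 6-phosphate targeting, the route by which hydrolases reach the lysosome, were tested. In each overexpression group 1 rose and 2 fell, so 50% were called, beside 39.6% and 38.5% of all genes. With the guides 0 rose, while 1 fell with sgRNA-PURPL#1 and 2 with sgRNA-PURPL#2. Those are 16.7% and 33.3%, beside 24.5% and 24.4% of all genes. Both receptors fell with overexpression. IGF2R fell with log2 fold changes of -0.36 ± 0.0479 (SE, adjusted p = 4.02e-07) and -0.26 ± 0.0479 (SE, adjusted p = 5.57e-05), and M6PR fell with log2 fold changes of -0.31 ± 0.0594 (SE, adjusted p = 0.000106) and -0.43 ± 0.0603 (SE, adjusted p = 9.59e-07). SORT1, the sortilin that offers another route, rose with log2 fold changes of 0.93 ± 0.0544 (SE, adjusted p = 1.03e-14) and 0.59 ± 0.0549 (SE, adjusted p = 3.09e-10) with overexpression and fell with log2 fold changes of -0.70 ± 0.0669 (SE, adjusted p = 1.57e-09) and -0.54 ± 0.0664 (SE, adjusted p = 2.25e-07) with the guides. Genes outside the 35, other than the senescence genes, were named for the smallest adjusted p-values of their list in any comparison with a control.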

How the data were processed

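RNA was extracted with TRIzol, poly(A) RNA was selected and reverse transcribed from random hexamers, per the labels' protocols; the molecule field reads genomic DNA, at odds with those steps. The deposited values are raw read counts per gene, 1 table per experiment, with no molecular identifiers. The submitters' processing notes name, without roles, featureCounts 2.0.1 and Subread, HISAT2 2.1.0, DESeq2 1.34.0, SAMtools 1.11, cutadapt 3.3, FastQC 0.11.9 and the builds GRCh38.p13 and hg38. The annotation release was not given in the sources used here, nor the strand setting of the counting.

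Each table (18 columns, 0 left unused) was fitted in R 4.3.3 with edgeR 4.0.16 (limma 3.58.1): filterByExpr (min.count 10, min.total.count 15), TMM scaling and the quasi-likelihood test over all 3 groups, which share 1 estimate of the spread. P-values were adjusted by Benjamini-Hochberg over 13923 genes (knockdown) or 15267 genes (overexpression), and 15166 in the joint fit of all 18 libraries, with a threshold of 0.05. Levels are CPM computed from the deposited counts with TMM-scaled library sizes. Of the overexpression columns 5 carry no replicate number (3 of PURPL#1-OE, 2 of PURPL#2-OE). DESeq2 1.42.0, RLE scaling, filters, left-out libraries and a replicate block were alternatives. The procedure was tested on simulated data: of genes changed by 0.5 on the log2 scale 62.6% were recovered for sgRNA-PURPL#1 against sgCtrl and 62.9% for PURPL#1-OE against Ctrl, and of those changed by 1, 84.8% and 81.8%. Of 155 and 156 genes called there, 9 and 14 had not been changed. Far fewer genes were changed in the simulation than were called in these comparisons of the data (3417 and 6047), and what that alters was not tested.

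The members, the other gene lists and the tests were chosen with earlier results of these data known. A member is given in every library where it passed in the same direction with both guides, in both overexpression groups or in the difference of effects, GLB1 always; at most 3 genes of each other list, those with the smallest adjusted p, are named. One gene that this rule names is not reported here. Values were added for other members that passed in 1 comparison, after they were seen. The glucocerebrosidase gene was found by its gene ID under an older symbol. Promoter windows come from RefSeq (GRCh38.p14).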

Additional observations from a re-analysis of the deposited data

Results flagged for a closer look

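Lysosomal genes differed between groups under the same contrast in 3 ways, each tested on the difference itself with edgeR's quasi-likelihood test and Benjamini-Hochberg adjustment over all genes. No group was large enough for a check of single libraries standing apart.

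The knockdown guides differed in 5 lysosomal genes, all lower with sgRNA-PURPL#2 than with sgRNA-PURPL#1. The log2 difference (sgRNA-PURPL#2 minus sgRNA-PURPL#1) was -0.48 ± 0.102 (SE, adjusted p = 0.00182) for CTSS, -0.45 ± 0.0734 (SE, adjusted p = 6.51e-05) for MITF and -0.41 ± 0.0607 (SE, adjusted p = 1.27e-05) for CTSK. It was -0.29 ± 0.0864 (SE, adjusted p = 0.0311) for SGSH, lost without sgRNA-PURPL#1 replicate 2 or 3, or sgRNA-PURPL#2 replicate 1 or 3 (each left out alone, adjusted p up to 0.198). It was -0.24 ± 0.0775 (SE, adjusted p = 0.0416) for GM2A, lost without sgCtrl replicate 2, sgRNA-PURPL#1 replicate 1 or 3, or sgRNA-PURPL#2 replicate 1, 2 or 3 (each left out alone, adjusted p up to 0.204).

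The overexpression groups differed in 10. The cathepsins gave log2 differences (PURPL#2-OE minus PURPL#1-OE) of 0.57 ± 0.109 (SE, adjusted p = 0.000471) for CTSS, 0.28 ± 0.0489 (SE, adjusted p = 0.000166) for CTSK, 0.21 ± 0.0542 (SE, adjusted p = 0.00724) for CTSB and -0.19 ± 0.0574 (SE, adjusted p = 0.0251) for CTSL. The hydrolases gave 0.37 ± 0.0928 (SE, adjusted p = 0.00693) for GUSB, -0.34 ± 0.0653 (SE, adjusted p = 0.000512) for ARSB and -0.33 ± 0.0529 (SE, adjusted p = 4.70e-05) for LIPA. The rest were 0.23 ± 0.0541 (SE, adjusted p = 0.00407) for PSAP, 0.44 ± 0.124 (SE, adjusted p = 0.0159) for MCOLN1 and 0.19 ± 0.0609 (SE, adjusted p = 0.0410) for TFE3. The CTSB call was lost without PURPL#1-OE unnumbered library a or c (each left out alone, adjusted p up to 0.0709), and the CTSL call without PURPL#1-OE unnumbered library a, b or c, or PURPL#2-OE unnumbered library a or b (each left out alone, adjusted p up to 0.154). The MCOLN1 call was lost without PURPL#1-OE unnumbered library a, or PURPL#2-OE unnumbered library a or b (each left out alone, adjusted p up to 0.0866), and the TFE3 call without Ctrl replicate 1, PURPL#1-OE unnumbered library a, b or c, or PURPL#2-OE unnumbered library a or b (each left out alone, adjusted p up to 0.298).

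The knockdown effect differed from the overexpression effect in 12. Positive differences (knockdown minus overexpression) were 2.29 ± 0.120 (SE, adjusted p = 3.75e-20) for CTSS, 0.66 ± 0.0733 (SE, adjusted p = 5.49e-10) for CTSL, 0.49 ± 0.0979 (SE, adjusted p = 7.88e-05) for NEU1, 0.44 ± 0.0986 (SE, adjusted p = 0.000361) for FUCA1, 0.38 ± 0.0765 (SE, adjusted p = 9.04e-05) for ATP6V1C1 and 0.18 ± 0.0697 (SE, adjusted p = 0.0381) for CTSK. Negative ones were -0.95 ± 0.257 (SE, adjusted p = 0.00327) for TFEB, -0.69 ± 0.147 (SE, adjusted p = 0.000213) for GAA, -0.44 ± 0.0945 (SE, adjusted p = 0.000241) for ARSB, -0.39 ± 0.108 (SE, adjusted p = 0.00403) for MAN2B1, -0.34 ± 0.119 (SE, adjusted p = 0.0221) for GUSB and -0.33 ± 0.0815 (SE, adjusted p = 0.00141) for MITF. Experiment and table go together, so a difference between the cultures of the knockdown and the overexpression experiment cannot be told apart from a difference between the treatments.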

How the results depend on the processing

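Among the members called in the main fit and GLB1, no value changed sign under the alternatives run. Other members that had not passed were not followed there. With DESeq2, 8 calls on members were lost. Those lost were ARSA, LIPA and GM2A with sgRNA-PURPL#1, HEXA and GAA with sgRNA-PURPL#2, SGSH and GM2A between the guides, and TFE3 between the overexpression groups. Other size factors (RLE) ended 1 call, no filter on low counts 6, a stricter filter 0 and a fit of only the groups compared 4. The stricter filter (min.count 50) left 80 values to compare, against 81 with DESeq2. A call on a member that this filter removed is not counted as lost. The counts of members called were sensitive in the knockdown table, and the cause was not tested. With sgRNA-PURPL#1 the 8 calls became 5 with DESeq2 and 5 with no filter, and 5 to 8 when each library was left out in turn. With sgRNA-PURPL#2 the 8 became 5 when only the groups compared were fitted, and 3 to 12 without 1 library. Between the guides the 5 became 3 with DESeq2 and 8 when only the groups compared were fitted, and 3 to 7 without 1 library. In the overexpression table the counts without 1 library were 12 to 16 in PURPL#1-OE, 15 to 19 in PURPL#2-OE and 7 to 13 between the groups. GLB1 without 1 library ranged from -0.21 to -0.12 with sgRNA-PURPL#2 and from -0.21 to -0.071 in PURPL#2-OE.

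Same-numbered knockdown libraries did not deviate together (correlations from -0.112 to 0.0447, 0 of 9 pairs over 0.1). With 3 libraries in a group, that cannot show whether the numbers pair the samples. The main fit treated the libraries as unpaired. With the replicate block the members called were 8, 7 and 4 with sgRNA-PURPL#1, with sgRNA-PURPL#2 and between the guides, and GLB1 was -0.16 with sgRNA-PURPL#2. No paired analysis was possible in the overexpression table because its columns share fewer than 2 replicate numbers. Depth limits TFEB and HEXA most, with 94 counts or fewer in every library.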

Other observations

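Of 24 lysosomal membrane proteins beyond the members that were tested, 2 rose and 7 fell with sgRNA-PURPL#1, 2 rose and 7 fell with sgRNA-PURPL#2, 4 rose and 6 fell in PURPL#1-OE, and 3 rose and 5 fell in PURPL#2-OE. Called were 37.5% with each guide, beside 24.5% and 24.4% of all genes, and 41.7% and 33.3% with overexpression, near the 39.6% and 38.5% of all genes. LAMP3, an interferon-induced relative of LAMP1, rose with log2 fold changes of 1.33 ± 0.129 (SE, adjusted p = 2.04e-09) with sgRNA-PURPL#1 and 1.42 ± 0.128 (SE, adjusted p = 6.13e-10) with sgRNA-PURPL#2 and fell with log2 fold changes of -1.95 ± 0.339 (SE, adjusted p = 2.43e-05) in PURPL#1-OE and -1.79 ± 0.343 (SE, adjusted p = 9.47e-05) in PURPL#2-OE. NPC1, which exports cholesterol from the lysosome, fell with log2 fold changes of -0.98 ± 0.0545 (SE, adjusted p = 2.89e-15) in PURPL#1-OE, -0.76 ± 0.0545 (SE, adjusted p = 1.17e-12) in PURPL#2-OE and -0.20 ± 0.0575 (SE, adjusted p = 0.0114) with sgRNA-PURPL#2. SCARB2, the receptor that carries glucocerebrosidase to the lysosome, fell in the same 3 with log2 fold changes of -0.64 ± 0.0488 (SE, adjusted p = 4.05e-12), -0.49 ± 0.0488 (SE, adjusted p = 1.45e-09) and -0.19 ± 0.0572 (SE, adjusted p = 0.0144).

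Of 25 autophagy genes tested, 5 rose and 2 fell with sgRNA-PURPL#1, 3 rose and 3 fell with sgRNA-PURPL#2, 6 rose and 3 fell in PURPL#1-OE, and 4 rose and 5 fell in PURPL#2-OE. Called were 28% and 24% with the guides and 36% in each overexpression group, near the shares of all genes given above. SQSTM1, the autophagy receptor p62, rose with log2 fold changes of 0.42 ± 0.0578 (SE, adjusted p = 1.76e-06) and 0.20 ± 0.0578 (SE, adjusted p = 0.0113) with the guides and fell with log2 fold changes of -0.60 ± 0.0604 (SE, adjusted p = 2.93e-09) and -0.50 ± 0.0605 (SE, adjusted p = 9.79e-08) with overexpression. ULK2, a kinase that starts autophagy, fell with log2 fold changes of -0.24 ± 0.0831 (SE, adjusted p = 0.0361) and -0.24 ± 0.0831 (SE, adjusted p = 0.0377) with the guides and rose with log2 fold changes of 0.74 ± 0.0732 (SE, adjusted p = 1.25e-09) and 0.58 ± 0.0743 (SE, adjusted p = 1.78e-07) with overexpression.

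Of the 8 genes of a senescence panel, 2 rose and 4 fell with each guide, 0 rose and 5 fell in PURPL#1-OE, and 0 rose and 6 fell in PURPL#2-OE. Called were 75% with each guide, beside 24.5% and 24.4% of all genes. With overexpression 62.5% and 75% were called, beside 39.6% and 38.5% of all genes. Of 6 keratinocyte markers, 2 were tested in the knockdown table, where 1 rose with sgRNA-PURPL#2, and 3 in the overexpression table, where 1 rose in PURPL#1-OE. Of 5 endothelial markers, 2 were tested in the knockdown table, where 1 rose and 1 fell with sgRNA-PURPL#1, and 4 in the overexpression table, where 2 fell in PURPL#1-OE and 1 in PURPL#2-OE.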
